A study of Mus musculus with 7 samples.

Results

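The interleukins and their receptors form a set of 84 genes among the 52740 gene identifiers counted in the retinal pigment epithelium (RPE) of aged mice. Members were the protein-coding genes whose symbol starts with Il and a digit, so secreted cytokines, receptor chains, soluble antagonists, decoy receptors, binding proteins and an enzyme of that name all entered, whatever their counts. RNA was sequenced from 7 mice, each 24 months old. The 4 WT libraries came from 3 females and 1 male of C57BL6/J (F1, F2, F3 and M1), and the 3 LC3b-/- libraries from 2 females and 1 male (F1, F3 and M) of B6;129P2-Map1Lc3b(tm1Mrab)/J, whose Map1lc3b gene, which encodes the autophagy protein LC3b, is disrupted in every cell. No treatment is named for either group. The strain names differ, so strain background and genotype cannot be told apart, and the mouse names carry a group number that the genotypes never share and whose meaning is not stated.

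Interleukins are secreted proteins through which immune, epithelial and stromal cells signal to each other. Each binds a receptor of 1 or more chains, which pass the signal on through Janus kinases and STAT factors or, for the IL-1 and IL-17 families, through adaptor proteins and NF-kB. The system carries its own brakes: antagonists that occupy a receptor without activating it, decoy receptors that bind a cytokine without signalling, and soluble binding proteins. In the retina, the RPE lies between photoreceptors and choroid and is known both to secrete cytokines such as IL-6 and to respond to them.

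The libraries held 24495952 to 35616134 counts. Map1lc3b had 2778 to 4444 counts in WT and 168 to 332 in LC3b-/- libraries. Levels are CPM, a gene's counts relative to its library's total, with totals scaled by TMM factors of 0.931 to 1.12. RPE had been released with enzymes from dissected eyecups, and its markers, such as Rpe65, were abundant in all 7 libraries (11 genes, summed CPM 31300 to 49300 in WT and 13600 to 29300 in LC3b-/-), although lower in the latter. Several other marker sums were higher in LC3b-/-. The summed CPM of 14 ocular surface epithelium genes, keratins of the conjunctiva and cornea among them, was 228 to 2970 in WT and 3870 to 26100 in LC3b-/-. For 7 mast cell genes it was 8.76 to 26.1 in WT and 38.6 to 135 in LC3b-/-, and for 8 endothelial genes 372 to 1190 and 1340 to 1600. The summed melanocyte markers were lower in LC3b-/- (1380 to 1470 against 1610 to 2800), though 5 of the 6 genes overlapped singly and Kit was higher. The sums overlapped for 8 fibroblast and pericyte genes (403 to 1510 and 906 to 1990), of which 7 were fitted higher, 12 macrophage and microglia genes (444 to 645 and 430 to 722), 12 T, NK and innate lymphoid cell genes (28.5 to 44.9 and 28 to 39.5), 5 B cell genes (0.786 to 3.42 and 1.48 to 2.38) and 9 neutrophil genes (3.41 to 10.2 and 4.64 to 10.9). Of the neutrophil genes, Mpo was at 0 in every library and Ly6g in 6 of 7. In bulk tissue, more cells of a type and more RNA per cell cannot be told apart, and the part of these cells in the results below was not tested except where a value is given.

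Most interleukin genes had a higher mean in LC3b-/- RPE, with some overlap between mice. Their summed CPM in WT was 879.6 in F1, 691 in F2, 647.8 in F3 and 691.1 in M1, with a mean of 727 ± 104 (SD, n = 4). For the LC3b-/- mice the sums were 1114 (F1), 852.4 (F3) and 1062 (M), with a mean of 1010 ± 138 (SD, n = 3). WT F1 was the highest WT library and exceeded LC3b-/- F3. It lay above the mean of the other WT libraries for 44 of the 51 tested members. Of the 84 members, 51 passed the filter on low counts and were tested, and 33 did not. The fitted log2 fold change (LC3b-/- minus WT) was above 0 for 42 of the 51 and below 0 for 9, where 51.2% of all 16990 genes tested were above 0. The median over the tested members was 0.75, beside 0.01 over all genes tested.

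Single-gene evidence was limited by the spread between mice. With the thresholds the study used (adjusted p below 0.05, fold change 1.5 or more either way), the edgeR quasi-likelihood fit, adjusted by Benjamini-Hochberg, called no member and 0.235% of all genes. At an unadjusted p under 0.05, 19 members were higher in LC3b-/- and 1, Il12b, was lower, against 13.5% of all genes higher and 10.6% lower. Every LC3b-/- library lay above every WT library for 15 of the 51 members, against 12% of all genes, and below for 2, Il12b and Il18, against 10.3%. The other 34 overlapped. Among tested members, Il36g, Il1r2, Il7r, Il3ra, Il20rb and Il12b had an exact two-sided permutation p of 0.0286, the smallest value these groups allow. DESeq2's Wald test called 16 members. Of these, 15 were higher, out of 57 members with a DESeq2 adjusted p, where 6.74% of all genes were called higher, and Il12b was lower. The edgeR result moved with single libraries, for members and for all genes. Without WT F1 it called Il17ra and Il1r2, and 215 of all 16753 genes. Without LC3b-/- M it called Il33 and Il36g, and 485 of all 17553 genes. Without LC3b-/- F1, 12 members in place of 20 were at an unadjusted p under 0.05. Over all genes that number was 2461 in place of 4089. Nothing in the labels says that mice were of separate litters, so p-values measure the spread between these 7 mice.

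**Figure D1:**
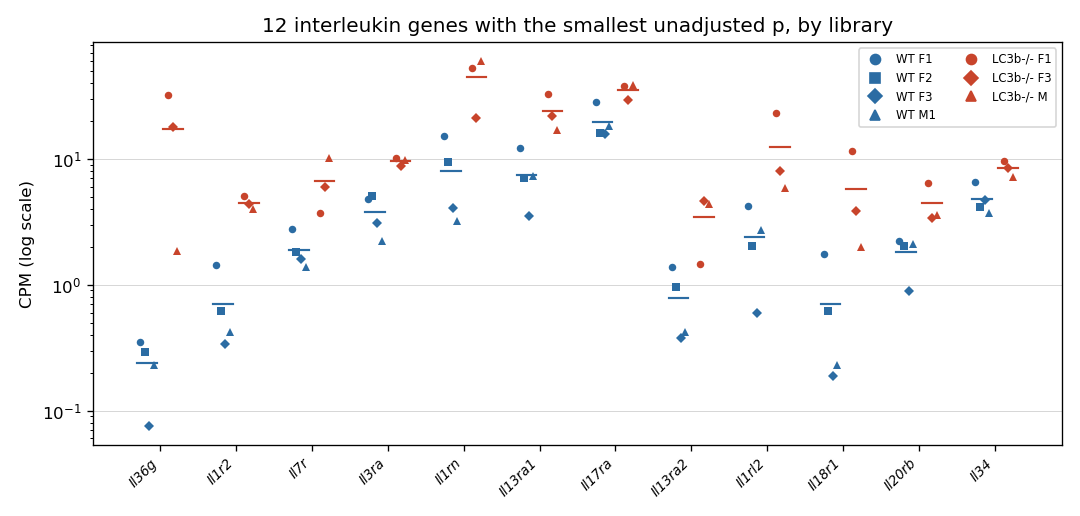
CPM on a log axis for the 12 interleukin genes with the smallest unadjusted p; each point is 1 library, coloured by genotype, and short bars are group means (4 WT, 3 LC3b-/-). The 3 LC3b-/- points lie above all 4 WT points for each of the 12 genes, by a wide margin for Il36g and a narrow one for Il34.

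The IL-1 family held the 6 largest fitted differences. It comprises pro-inflammatory ligands (IL-1α, IL-1β, IL-18, IL-33 and the IL-36 cytokines), their receptors and several inhibitors. Of 20 family genes 15 were tested, 13 were higher, 8 of them at an unadjusted p under 0.05, and the median log2 fold change was 0.95. Il36g encodes IL-36γ, a cytokine of barrier epithelia. In WT its level was 0.351 CPM in F1, 0.29 in F2, 0.0749 in F3 and 0.231 in M1. Among LC3b-/- mice it was 32.1 CPM in F1, 17.8 in F3 and 1.86 in M. Values keep these orders throughout. The groups were far apart, but LC3b-/- M held much less than the other two. The log2 fold change was 6.15 (SE 0.97, edgeR adjusted p = 0.063). DESeq2 gave an adjusted p of 5.42e-12 and limma voom one of 0.121. Ocular surface epithelium markers summed to 26100, 6850 and 3870 CPM in the same 3 LC3b-/- libraries, the same order as Il36g. WT M1 had 2970 CPM of those markers and less Il36g than LC3b-/- M. The sums of these libraries were close, but single genes were not all alike. Krt12 was at 786 CPM in WT M1 and 12.4 in LC3b-/- M, Krt4 at 29.6 and 221, and Krt5 at 1020 and 1260. The part of that tissue in the Il36g difference was not tested.

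The other IL-36 ligands were too sparse to test. Il36a had 0 counts in the 4 WT libraries and 4, 13 and 0 in the LC3b-/- ones. Il36b likewise had 0 in WT and 15, 4 and 0 in LC3b-/-. Il36rn, the IL-36 receptor antagonist, had 3 counts in WT M1, 0 in the other WT libraries, and 25, 0 and 7 in LC3b-/-. Each of these genes lies with Il36g and Il1rn in a cluster on chromosome 2, and each had most of its counts in 1 LC3b-/- library. The sixth gene of the cluster, Il1f10, had 0 counts throughout.

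Il1rn encodes the IL-1 receptor antagonist, the natural blocker of the IL-1 receptor. Its level was 15.3, 9.41, 4.08 and 3.19 CPM in WT (8 ± 5.59, SD, n = 4) and 52.4, 21.2 and 60.3 CPM in LC3b-/- (44.6 ± 20.7, SD, n = 3). The lowest LC3b-/- library was above the highest WT library. The log2 fold change was 2.48 (SE 0.6, edgeR adjusted p = 0.096), and it lay between 2.2 and 3.01 when any 1 library was left out. LC3b-/- M, the library with the most Il1rn, had the lowest ocular surface sum of the 3 and the highest mast cell sum. The mast cell sums of 99.1, 38.6 and 135 CPM had the same order as Il1rn. In WT they did not, as M1 had the highest mast cell sum (26.1 CPM) and the lowest Il1rn. Kit, also a melanocyte marker, gave 18.3 CPM of that sum. The LC3b-/- sums of fibroblast and pericyte genes (1330, 906 and 1990 CPM) also had the order of Il1rn. So had those of T, NK and innate lymphoid cell genes (28.7, 28 and 39.5 CPM). In WT both sums were highest in F1, as was Il1rn. An order over 3 libraries can match by chance, and the part of any of these tissues was not tested.

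The agonists that Il1rn opposes differed less. Il1b, encoding the secreted cytokine IL-1β, was at 24.2, 15.8, 8.72 and 9.03 CPM in WT and 20.3, 13.5 and 29 CPM in LC3b-/-, so the groups overlapped (log2 fold change 0.54, SE 0.42, edgeR adjusted p = 0.456). Il1a, encoding IL-1α, was at 13.5, 5.68, 1.46 and 6.73 CPM in WT and 15.3, 17.1 and 4.81 CPM in LC3b-/-. Here too the groups overlapped, with LC3b-/- M below 3 of the WT libraries (0.86, SE 0.69, edgeR adjusted p = 0.476). Il33 encodes an alarmin released by damaged epithelium and endothelium. It was at 51.5, 43.3, 35.7 and 33.6 CPM in WT and 117, 84.4 and 36.9 CPM in LC3b-/-. The 2 LC3b-/- females stood above every WT mouse and the male stood among them (0.95, SE 0.36, edgeR adjusted p = 0.17), with 0.56 without LC3b-/- F1 and 1.29 without LC3b-/- M.

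Il18 was lower, unlike the other tested ligands of the family. IL-18 is a constitutively stored cytokine that the inflammasome releases. Il18 was at 18.5, 16.6, 19.5 and 22.9 CPM in WT and 16.3, 13.9 and 16.2 CPM in LC3b-/-. All LC3b-/- libraries were below all WT libraries, but by little (log2 fold change -0.32, SE 0.15, edgeR adjusted p = 0.23). Il18bp, whose secreted product neutralises IL-18, was at 3.98 to 4.84 CPM in WT and 4.19 to 5.99 CPM in LC3b-/- (0.26, SE 0.21, edgeR adjusted p = 0.48). Il1rapl1, a synaptic receptor-like member, was at 1.33 to 1.96 CPM in WT and 0.738 to 2.03 CPM in LC3b-/- (-0.25, SE 0.4, edgeR adjusted p = 0.727).

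The receptors of this family sit side by side on mouse chromosome 1. From Il1r2 at 40113239 to the end of Il18rap at 40590865 (GRCm39), the order is Il1r2, Il1r1, Il1rl2, Il1rl1, Il18r1 and Il18rap. All 6 were higher in LC3b-/-, 5 at an unadjusted p under 0.05, with a median log2 fold change of 2.51. In the LC3b-/- libraries, Il1r2, Il1r1, Il1rl2 and Il18r1 had the order of the ocular surface sum (F1, F3, M). Outside the cluster, so did Il36g, Il33, Il13ra1, Il34, Il15, Il17rc and Il17rb. An order over 3 libraries can match by chance. In WT that sum was highest in M1, Il17rb in F2 and each of the other genes in F1. The part of that tissue was not tested. Il1r1, the signalling receptor for IL-1, was at 20.2, 11.7, 9.74 and 6.73 CPM in WT and 33.5, 26 and 21.6 CPM in LC3b-/-. The groups did not overlap (1.16, SE 0.36, edgeR adjusted p = 0.126). Il1r2, the decoy that binds IL-1 without signalling, was at 1.43, 0.621, 0.337 and 0.423 CPM in WT and 5.11, 4.36 and 4.02 CPM in LC3b-/-. It had the tightest LC3b-/- values of the cluster (2.65, SE 0.51, edgeR adjusted p = 0.0869, limma voom adjusted p = 0.034), and the difference was 2.43 to 3.28 when any 1 library was left out.

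Il1rl2 encodes the IL-36 receptor. It was at 4.19, 2.03, 0.599 and 2.73 CPM in WT and 23.2, 8 and 5.85 CPM in LC3b-/-. As with its ligand Il36g, LC3b-/- F1 was highest and M lowest (2.36, SE 0.69, edgeR adjusted p = 0.115), and without LC3b-/- F1 the value was 1.53. Il18r1, the ligand-binding IL-18 receptor chain, was at 1.76, 0.621, 0.187 and 0.231 CPM in WT and 11.6, 3.86 and 1.98 CPM in LC3b-/-. WT F1 came close to LC3b-/- M (3.03, SE 0.91, edgeR adjusted p = 0.12), and without LC3b-/- F1 the value was 2.04. Its partner Il18rap was low, at 0.0769 to 0.907 CPM in WT and 0.326 to 1.36 CPM in LC3b-/-, and overlapped (0.94, SE 0.8, edgeR adjusted p = 0.499).

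Il1rl1 encodes ST2, the IL-33 receptor, which mast cells carry in abundance. It was at 1.76, 0.373, 0.225 and 0.269 CPM in WT and 2.66, 1.1 and 9.57 CPM in LC3b-/-. WT F1 exceeded LC3b-/- F3, and LC3b-/- M stood far above the rest (2.73, SE 0.96, edgeR adjusted p = 0.155). Without LC3b-/- M the value was 1.49. The 7 mast cell genes summed to 99.1, 38.6 and 135 CPM in the LC3b-/- libraries, again highest in M and lowest in F3. In WT that sum was highest in M1 and Il1rl1 in F1. Kit, also a melanocyte marker, gave 18.3 of the 26.1 CPM in WT M1 and 11.7 of the 25.1 CPM in WT F1. Of the other mast cell genes, Ms4a2 was higher in WT M1 than in WT F1. Cpa3, Mcpt4, Tpsb2, Cma1 and Fcer1a were lower. The fibroblast and pericyte sums were 1510, 1010, 403 and 510 CPM in WT and 1330, 906 and 1990 CPM in LC3b-/-. They had the order of Il1rl1 in both groups. The part of mast cells, or of these other cells, in the Il1rl1 difference was not tested. Il1rap, the chain shared by the IL-1, IL-33 and IL-36 receptors and encoded on chromosome 16, was at 2.4 to 8.19 CPM in WT and 5.74 to 10.6 CPM in LC3b-/- (0.68, SE 0.43, edgeR adjusted p = 0.365).

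**Figure D2:**
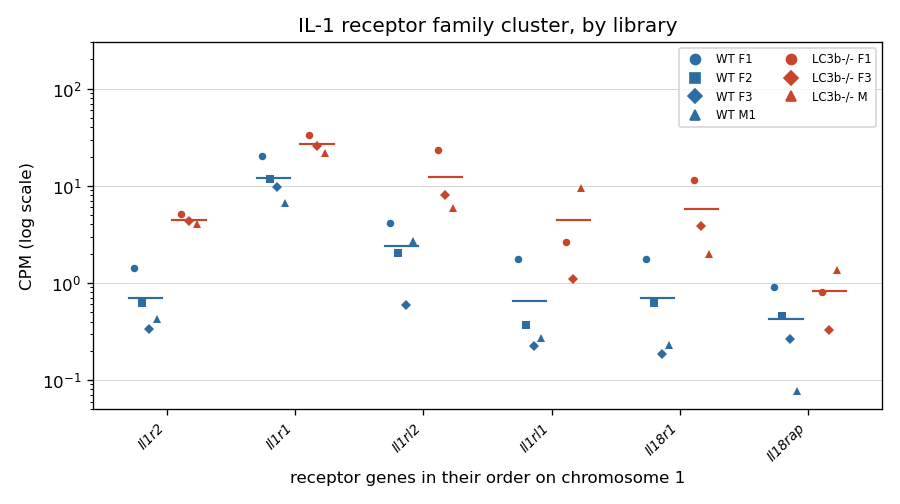
CPM on a log axis of the 6 IL-1 receptor family genes in their order on chromosome 1, 1 point per library and short bars for group means. The LC3b-/- points of Il1r2, Il1r1, Il1rl2 and Il18r1 lie above all WT points, whereas those of Il1rl1 and Il18rap overlap with WT.

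**Figure D3:**
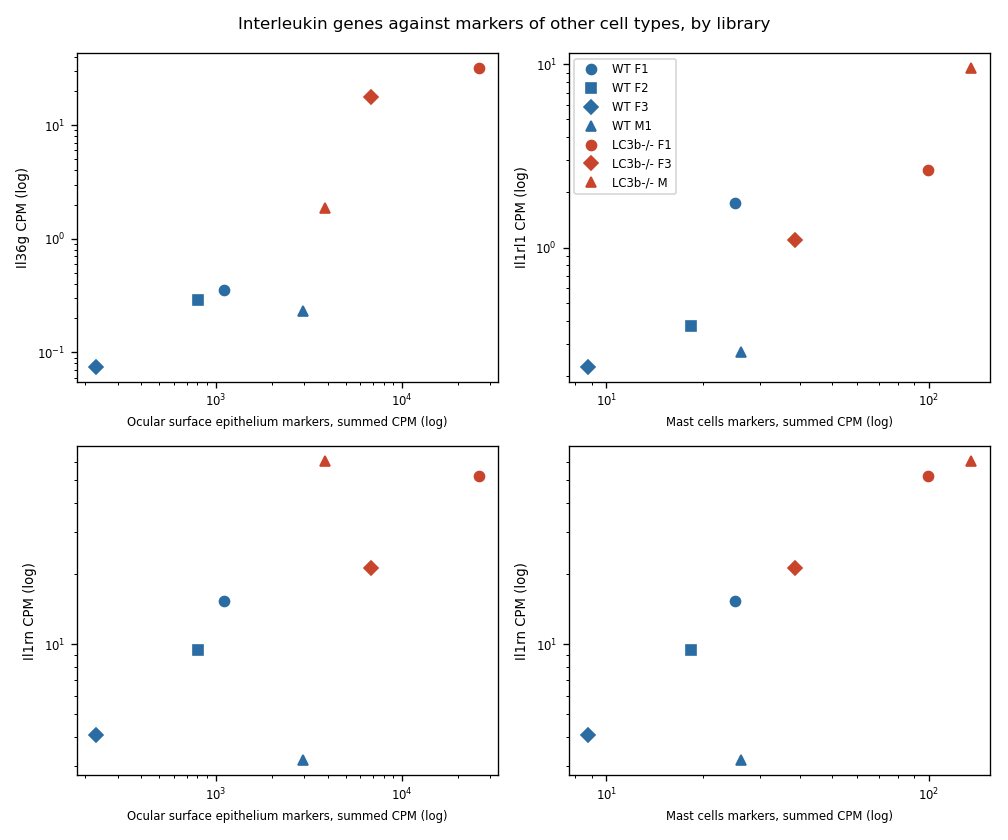
Il36g, Il1rl1 and Il1rn (CPM, log axes) against the summed CPM of markers of another cell type in the same library; each point is 1 library. Il36g and the ocular surface sum have the same order in the 3 LC3b-/- libraries, as do Il1rl1 and the mast cell sum, and Il1rn and the mast cell sum, while Il1rn and the ocular surface sum do not. Among WT libraries, M1 is highest in both sums and F1 in each of these genes. Kit, also a melanocyte marker, gives 18.3 of the 26.1 CPM of the mast cell sum in WT M1.

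Ratios within a library do not depend on depth or scaling, and 4 of them, chosen after the levels were seen and given with no test, set each inhibitor against its partner in counts per kilobase of exon. Il1rn over Il1a plus Il1b was 0.21, 0.221, 0.195 and 0.107 in WT and 0.776, 0.379 and 0.87 in LC3b-/-. This ratio was thus higher in every LC3b-/- mouse than in any WT mouse. Its size depends on the length used, as Il1rn has 5536 bases of exon and 2554 in its longest transcript. Decoy over signalling receptor, Il1r2 over Il1r1, was 0.192, 0.143, 0.0936 and 0.17 in WT and 0.412, 0.453 and 0.503 in LC3b-/-. Il18bp over Il18 was 0.131, 0.145, 0.133 and 0.128 in WT and 0.156, 0.26 and 0.192 in LC3b-/-. These 2 ratios did not overlap between the groups either. Il13ra2 over Il13ra1, the IL-13 decoy over the signalling chain, did overlap, at 0.198, 0.234, 0.185 and 0.101 in WT and 0.0769, 0.362 and 0.447 in LC3b-/-.

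**Figure D4:**
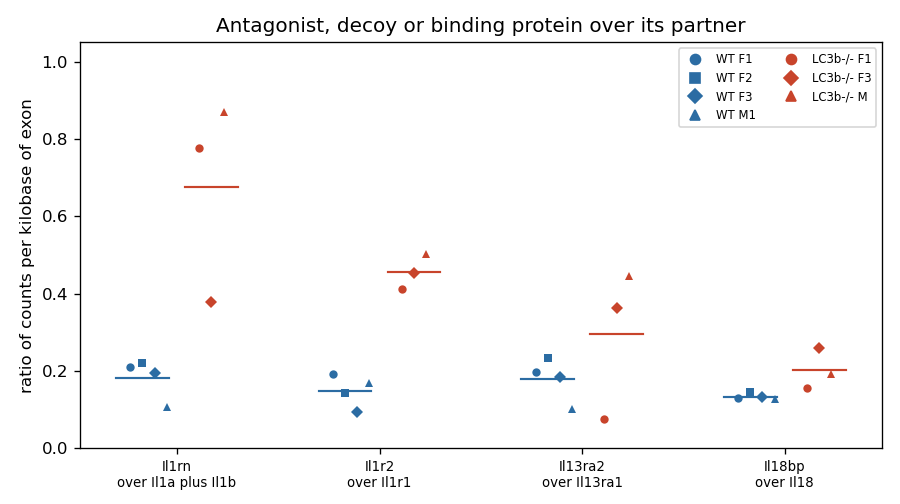
Ratio of counts per kilobase of exon of an antagonist, decoy or binding protein to its partner, 1 point per library with short bars for group means, on a linear axis from 0. Il1rn over Il1a plus Il1b, Il1r2 over Il1r1 and Il18bp over Il18 are higher in every LC3b-/- library than in any WT library, and Il13ra2 over Il13ra1 overlaps.

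Several receptors of the common gamma chain family and of IL-13 had higher levels in LC3b-/-, with none called by edgeR. The chains counted here receive IL-2, IL-4, IL-7, IL-9, IL-13, IL-15 and IL-21, cytokines of lymphocytes and allergic responses. The IL-13 receptors lack the common gamma chain, but Il13ra1 and Il13ra2 were counted with this family. All 11 tested members of 17 were above 0, 5 at an unadjusted p under 0.05, Il13ra1 and Il13ra2 among them, and the median was 0.8. Il7r, the IL-7 receptor chain, was at 2.78, 1.82, 1.61 and 1.38 CPM in WT and 3.7, 5.94 and 10.2 CPM in LC3b-/-. The groups were separate and LC3b-/- M was highest (1.8, SE 0.4, edgeR adjusted p = 0.094). Il13ra1, a signalling chain for IL-4 and IL-13, was at 12.1, 7.09, 3.52 and 7.3 CPM in WT and 32.8, 22 and 17 CPM in LC3b-/- (1.67, SE 0.4, edgeR adjusted p = 0.0967). Il13ra2, the decoy, was at 1.38, 0.953, 0.374 and 0.423 CPM in WT and 1.45, 4.59 and 4.37 CPM in LC3b-/-. LC3b-/- F1 barely exceeded WT F1 (2.14, SE 0.6, edgeR adjusted p = 0.109). LC3b-/- F1 was thus the lowest of the 3 for the decoy and the highest for Il13ra1.

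Il4ra, the IL-4 receptor chain that pairs with Il13ra1, was at 18.5 to 39.2 CPM in WT and 34.4 to 50.8 CPM in LC3b-/- (0.75, SE 0.29, edgeR adjusted p = 0.179). Il15, a ligand presented by epithelial and myeloid cells, was at 3.22, 1.78, 2.21 and 1.46 CPM in WT and 6.85, 3.46 and 3.43 CPM in LC3b-/-. The groups were separate by a small gap (1.07, SE 0.39, edgeR adjusted p = 0.16), and without LC3b-/- F1 the value was 0.66. The other tested genes of the family, Il15ra, Il21r, Il2ra, Il2rb, Il2rg and Il7, overlapped. T, NK and innate lymphoid cell markers, from cells that carry many of these receptors, overlapped between the genotypes. Il3ra, the IL-3 receptor chain of the common beta family, was at 4.8, 5.1, 3.07 and 2.23 CPM in WT and 10.1, 8.85 and 9.72 CPM in LC3b-/-. Its LC3b-/- values were close together and well above WT (1.33, SE 0.31, edgeR adjusted p = 0.0951).

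The IL-6 family signals through the shared chain gp130. Of 7 tested members 3 were higher and 4 lower (median -0.18), none at an unadjusted p under 0.05 and none called by DESeq2. Of the 4 that were lower, 3 are the near-identical IL-11 receptor genes Il11ra1, Il11ra2 and Il11ra3, and the median is the value of Il11ra1. Il6, encoding the acute-phase cytokine IL-6, was at 47, 21.6, 10.6 and 11.2 CPM in WT and 39.5, 24.4 and 97 CPM in LC3b-/-. WT F1 exceeded 2 of the LC3b-/- libraries (1.24, SE 0.64, edgeR adjusted p = 0.279), and without LC3b-/- M the value was 0.49. The summed fibroblast and pericyte markers, at 1510, 1010, 403 and 510 CPM in WT and 1330, 906 and 1990 CPM in LC3b-/-, had the same highest and lowest libraries as Il6, and their part was not tested. Il6ra, its binding chain, was at 2.58 to 6.82 CPM in WT and 4.16 to 9.45 CPM in LC3b-/- (0.7, SE 0.42, edgeR adjusted p = 0.337), and without LC3b-/- M the value was 0.33. Il6st, encoding gp130, was at 204 to 242 CPM in WT and 223 to 272 CPM in LC3b-/- (0.24, SE 0.13, edgeR adjusted p = 0.308), and made up 24.2% to 32.1% of the interleukin CPM of a library. Il11, a related cytokine, was at 0.787 to 1.52 CPM in WT and 0.401 to 1.15 CPM in LC3b-/- (-0.61, SE 0.48, edgeR adjusted p = 0.459).

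The IL-11 receptor has near-identical copies in the mouse. Il11ra1 and Il11ra2 share 98.9% of bases over 1953 aligned bases, so counts can be split between them and Il11ra3. Il11ra1 was at 92, 91.8, 91.7 and 105 CPM in WT and 71.3, 74.7 and 105 CPM in LC3b-/- (-0.18, SE 0.16, edgeR adjusted p = 0.502). Il11ra2 (-0.7, SE 0.58, edgeR adjusted p = 0.486) and Il11ra3 (-0.81, SE 0.78, edgeR adjusted p = 0.552) were at most 4.46 CPM in any library. With the counts of the 3 copies summed, the log2 fold change was -0.2 (edgeR adjusted p = 0.453). Il22 and Il22b, with 97.3% identity, and Il10rb, Il4i1 and their overlapping transcripts are uncertain for the same reason.

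Il12b was the only member lower at an unadjusted p under 0.05. It encodes the p40 chain shared by IL-12 and IL-23. It was at 4.57, 3.85, 5.92 and 4.42 CPM in WT (4.69 ± 0.874, SD, n = 4) and 1.37, 1.81 and 3.51 CPM in LC3b-/- (2.23 ± 1.13, SD, n = 3). LC3b-/- M came nearest to WT (-1.07, SE 0.37, edgeR adjusted p = 0.151, and DESeq2 adjusted p = 0.0402). Il23a, the chain that pairs with p40 to make IL-23, did not pass the edgeR filter and went the other way, with 0, 1, 2 and 0 counts in WT and 15, 15 and 8 in LC3b-/-. DESeq2, which filters otherwise, called it (log2 fold change 3.84, DESeq2 adjusted p = 0.036). The 38 counts in LC3b-/- have an exact Poisson 95% interval of 26.9 to 52.2, and the 3 in WT one of 0.619 to 8.77, which cover counting error only. Il27ra, a cytokine receptor of the same family, was at 0.337 to 1.08 CPM in WT and 1.18 to 1.91 CPM in LC3b-/- (1.24, SE 0.53, edgeR adjusted p = 0.206), and Il12rb2 overlapped. The summed RPE markers, at 13600, 16500 and 29300 CPM in LC3b-/-, had the same order there as Il12b. In WT they were highest in M1, and Il12b in F3. Il11ra1 also had their order in LC3b-/-, while Il18 and Il17re did not. The part of RPE content in these differences was not tested.

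In the IL-10 family, 4 of 12 genes were tested and all were above 0 (median 0.57). Il20rb, a receptor chain for the epithelial cytokines IL-19, IL-20 and IL-24, was at 2.22, 2.03, 0.899 and 2.11 CPM in WT and 6.4, 3.41 and 3.57 CPM in LC3b-/-. The groups did not overlap (1.29, SE 0.4, edgeR adjusted p = 0.125). Il10, the anti-inflammatory cytokine, was at 0.966, 0.373, 0.412 and 0.846 CPM in WT and 0.805, 0.502 and 0.679 CPM in LC3b-/-, and had no direction (0.02, SE 0.49, edgeR adjusted p = 0.988, and -0.01 in DESeq2). Il10ra and Il10rb, its receptor chains, overlapped as well.

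In the IL-17 family, 7 of 11 genes were tested and 5 were above 0 (median 0.21). Il17ra, the chain that every IL-17 receptor uses, was at 28.1, 16.1, 15.9 and 18.2 CPM in WT and 37.8, 29.4 and 38.6 CPM in LC3b-/-. LC3b-/- F3 stood just above WT F1 (0.85, SE 0.23, edgeR adjusted p = 0.105). Il17re, the IL-17C receptor, was at 93.9 to 126 CPM in WT and 67.5 to 102 CPM in LC3b-/- (-0.32, SE 0.18, edgeR adjusted p = 0.308). Il17rc was at 19.7 to 25 CPM in WT and 17.9 to 44.8 CPM in LC3b-/- (0.47, SE 0.28, edgeR adjusted p = 0.342), and without LC3b-/- F1 the value was 0.09. Il25, the ligand of Il17rb, was at 0 to 0.692 CPM in WT and 0.161 to 0.443 CPM in LC3b-/- (-0.39, SE 0.99, edgeR adjusted p = 0.839), a level too low to give a direction. Il17a had at most 14 counts, in WT F1.

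The 3 members outside these families were all above 0. Il34, an alternative ligand of the macrophage receptor Csf1r, was at 6.61, 4.18, 4.68 and 3.73 CPM in WT and 9.7, 8.43 and 7.12 CPM in LC3b-/-. The groups were separate (0.81, SE 0.25, edgeR adjusted p = 0.126). The summed macrophage and microglia markers overlapped between the genotypes, as did 11 of the 12 genes singly, while Cd68 was at 10.7 to 29.3 CPM in WT and 29.4 to 52.8 CPM in LC3b-/-. Csf1r itself was at 208 to 317 CPM in WT and 93.7 to 260 CPM in LC3b-/-. Il4i1, an amino acid oxidase of myeloid cells, and Il16, a chemoattractant, were higher by 1.58 and 1.03 on the log2 scale, but both overlapped.

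**Figure D5:**
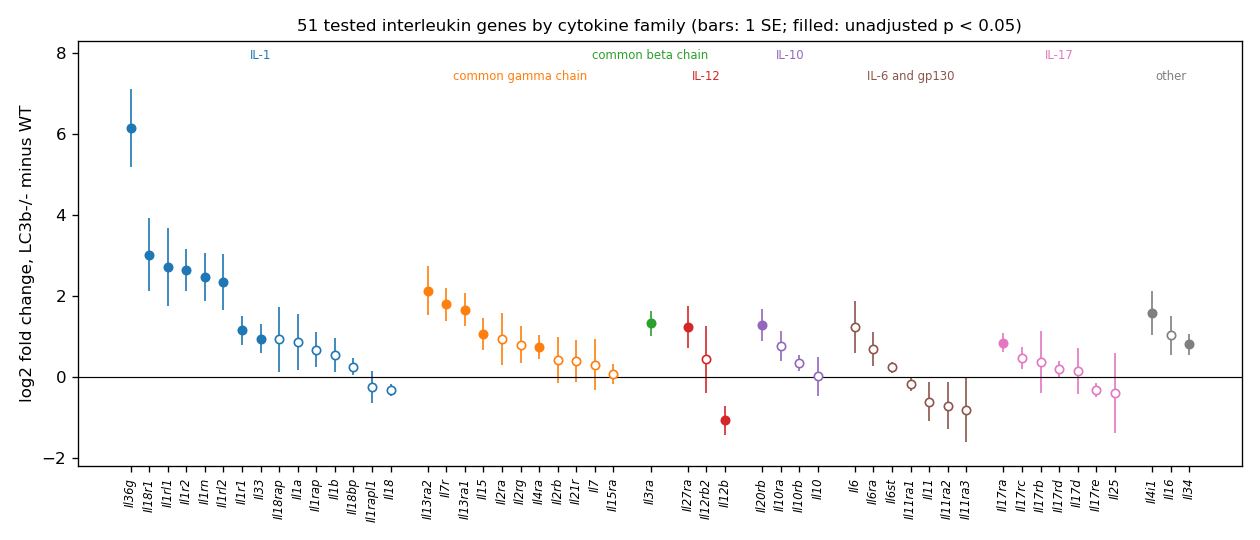
Log2 fold change (LC3b-/- minus WT, edgeR) of the 51 tested interleukin genes grouped by cytokine family; bars are 1 SE and filled points have an unadjusted p under 0.05. Most points lie above 0, the IL-1 family reaches 6.15 with Il36g, and the IL-6 family lies on both sides of 0.

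By level per kilobase of exon over the 7 libraries, the leading members were Il17re (16.3 CPM per kilobase), Il6st (15), Il6 (14.8), Il11ra1 (12.1), Il33 (9.3), Il1b (6.62), Il18 (5.88) and Il17rc (5.65). Of these 8, only Il33 had an unadjusted p under 0.05 in edgeR. The list depends on the length used. Per kilobase of the longest transcript, Il1rn (9.28 CPM, edgeR unadjusted p = 0.00376) stood above Il1b (8.71) and Il17rc (6.39). Il36g, with the highest fold change, was at 0.124 and 9.06 CPM per kilobase in WT and LC3b-/-, and Il1rn at 1.44 and 8.06.

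Among the 33 untested members, 3 (Il1f10, Il20 and Il9) had 0 counts in all libraries and 16 at most 3 counts in each. The 10 with 10 or more counts in some library were Il12rb1, Il17a, Il1rapl2, Il20ra, Il23a, Il31ra, Il36a, Il36b, Il36rn and Il9r. Il12rb1, the chain common to the IL-12 and IL-23 receptors, had 9, 1, 2 and 1 counts in WT and 11, 13 and 11 in LC3b-/-. Scaled to CPM, these groups were separate. Il20ra, partner of Il20rb, had 4, 4, 2 and 0 counts in WT and 11, 12 and 5 in LC3b-/-, and overlapped in CPM. Of the genes not yet described, Il31ra had 10, 2, 5 and 4 counts in WT and 1, 23 and 7 in LC3b-/-, and Il9r 5, 8, 4 and 0 in WT and 6, 14 and 7 in LC3b-/-. Il1rapl2 had at most 10 counts, in LC3b-/- F3.

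Upstream DNA is shown for those of the 12 genes with the smallest unadjusted p, all higher in LC3b-/-, whose window holds 1 of 3 motifs. These are motifs of factors acting below interleukin receptors. RefSeq promoters (GRCm38.p6) were found for 62 of 84 members. Of the 12, Il36g, Il17ra and Il34 had no promoter entry and were not searched. The 250 bases before each start were searched on both strands for TGANTCA (AP-1), TTCNNNGAA (STAT) and the NF-kB motif. TGANTCA was in 17.1% of member windows and 6.75% of all windows, TTCNNNGAA in 7.89% and 7.02%, and the NF-kB motif in 7.89% and 7.25%. The windows below run 5′ to 3′ on the gene's strand, with motif letters in capitals. Il1r2 (plus strand, chr1:40085843-40086092), Il7r (minus strand, chr15:9529877-9530126) and the third of 3 starts of Il18r1 (plus strand, chr1:40465756-40466005) hold TTCNNNGAA, and the first of 3 starts of Il1rn (plus strand, chr2:24336610-24336859) and Il13ra2 (minus strand, chrX:147429193-147429442) hold TGANTCA. Il6 (plus strand, chr5:30012864-30013113), which overlapped between the genotypes, is shown for contrast and holds both TGANTCA and the NF-kB motif.
Il1r2: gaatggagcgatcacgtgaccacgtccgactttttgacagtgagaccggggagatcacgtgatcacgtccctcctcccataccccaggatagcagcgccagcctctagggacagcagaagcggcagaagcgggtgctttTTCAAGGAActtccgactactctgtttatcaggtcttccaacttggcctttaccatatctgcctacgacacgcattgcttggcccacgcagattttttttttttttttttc
Il7r: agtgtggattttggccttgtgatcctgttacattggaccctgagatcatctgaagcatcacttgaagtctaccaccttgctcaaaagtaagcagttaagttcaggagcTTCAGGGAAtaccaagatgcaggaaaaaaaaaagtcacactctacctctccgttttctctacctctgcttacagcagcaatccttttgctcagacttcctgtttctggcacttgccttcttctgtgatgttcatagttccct
Il18r1: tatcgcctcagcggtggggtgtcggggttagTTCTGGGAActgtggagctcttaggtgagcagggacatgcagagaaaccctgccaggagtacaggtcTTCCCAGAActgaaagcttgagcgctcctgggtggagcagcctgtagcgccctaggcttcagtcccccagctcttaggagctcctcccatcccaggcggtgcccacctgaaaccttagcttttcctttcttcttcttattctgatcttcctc
Il1rn: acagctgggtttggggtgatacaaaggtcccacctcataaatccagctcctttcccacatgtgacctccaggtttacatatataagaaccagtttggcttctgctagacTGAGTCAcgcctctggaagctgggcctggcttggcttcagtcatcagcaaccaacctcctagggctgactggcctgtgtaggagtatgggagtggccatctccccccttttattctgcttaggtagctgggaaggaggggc
Il13ra2: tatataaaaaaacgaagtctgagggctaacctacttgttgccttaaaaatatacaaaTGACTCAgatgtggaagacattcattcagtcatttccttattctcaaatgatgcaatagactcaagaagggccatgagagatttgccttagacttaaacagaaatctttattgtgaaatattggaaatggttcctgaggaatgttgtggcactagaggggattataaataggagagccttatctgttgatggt
Il6: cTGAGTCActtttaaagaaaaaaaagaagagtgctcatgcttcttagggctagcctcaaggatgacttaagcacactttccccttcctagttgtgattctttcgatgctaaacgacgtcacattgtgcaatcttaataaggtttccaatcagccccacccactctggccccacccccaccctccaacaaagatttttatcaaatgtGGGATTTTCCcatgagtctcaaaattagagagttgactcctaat
A match is a run of letters and no evidence of binding, and the windows of Il1r1, Il1rl2, Il3ra, Il13ra1 and Il20rb hold none of the 3 except that 1 of 2 starts of Il1r1 holds the NF-kB motif.

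Genes that work with the interleukins outside the Il symbols were mostly above 0 too, and none was called by edgeR. DESeq2 called 4 genes in each list below, and 1731 of the 16990 genes that edgeR tested. At an unadjusted p under 0.05 in edgeR, 13.5% of all genes were higher and 10.6% lower. Of 20 tested partner chains and ligands, 15 were higher, 6 at an unadjusted p under 0.05 and none lower at it (median 0.5). Csf2rb2, an IL-3 receptor subunit and partner of Il3ra, was at 7.2, 2.53, 2.36 and 1.77 CPM in WT and 15.3, 17.4 and 18.6 CPM in LC3b-/- (2.3, SE 0.48, edgeR adjusted p = 0.0906). Both chains of this receptor were separate between the groups.

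Of 23 Janus kinases, STATs and feedback inhibitors, 16 were higher, 7 at an unadjusted p under 0.05, and 1 was lower at it (median 0.29). Jak2 was at 25.3 to 37.8 CPM in WT and 45.5 to 53.2 CPM in LC3b-/- (0.69, SE 0.16, edgeR adjusted p = 0.0951), and Stat3 at 106 to 146 and 171 to 205 CPM (0.6, SE 0.15, edgeR adjusted p = 0.0967). Of 26 adaptors and NF-kB genes, 20 were higher, 9 at an unadjusted p under 0.05, and 1 was lower at it (median 0.42). Nfkb2, an NF-kB subunit, was higher by 1.07 (SE 0.26, edgeR adjusted p = 0.096) and Zc3h12a, an RNase that degrades interleukin mRNAs, by 1.51 (SE 0.39, edgeR adjusted p = 0.0991). All 12 tested of 16 genes that process IL-1 family cytokines were above 0, 4 at an unadjusted p under 0.05 (median 0.93). They were led by Cma1, a mast cell protease (2.84, SE 0.55, edgeR adjusted p = 0.0869), and Capn1, a calpain that cuts IL-1α (2.22, SE 0.56, edgeR adjusted p = 0.0982). Cma1 is also among the mast cell markers above.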

How the data were processed

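RNA from RPE of 4 WT and 3 LC3b-/- mice was sequenced as 100 bp single reads from stranded mRNA libraries. The authors quantified reads with salmon against GENCODE vM26 transcripts (GRCm39) and summed them to genes; the deposited counts are whole numbers with no scaling, 24495952 to 35616134 per library. Symbols, positions and lengths came from GENCODE vM39 (51721 of 52740 identifiers matched). Salmon shares out reads between similar transcripts, so near-identical genes were searched with BLAST 2.17.0 (95% identity over 300 bases).

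Genotypes were compared over all genes with edgeR 4.0.16 (filterByExpr, TMM, glmQLFit, glmQLFTest, Benjamini-Hochberg over 16990 genes) in R 4.3.3. DESeq2 1.42.0, limma 3.58.1 voom, other filters and scalings, sex, females alone, a replicate block and leaving out each library were alternatives. The common biological coefficient of variation was 0.398. The test was checked on simulated counts. Exact permutation tests over the 35 splits cannot go below 0.0286. Libraries of a group differed by 67.3 to 222 times what counting error allows (chi-square over its degrees of freedom), and each was kept as its own replicate.

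Members and lists were chosen with earlier results of these data known. Named members were the 12 with the smallest p, the 8 with the highest level per kilobase, every tested member below 0, the highest and lowest fold changes, 18 members of general interest whatever their values, and untested members with 10 or more counts; 2 genes were named per pathway list, except 1 that is not reported here. The remaining members are given by counts or ranges, or were named after their values were seen.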

Additional observations from a re-analysis of the deposited data

Results flagged for a closer look

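In 3 genes, 1 WT library lay far from the other 3, measured as its gap to the nearest divided by the group's range. For Il11ra1, WT M1 stood apart with a value of 0.975. For Il20rb, WT F3 was low with a value of 0.898, and for Il25, WT F3, at 0 counts, gave 0.856. Chance gives about 1 such value in 20 groups, and many members were examined.

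In 3 genes, Il11ra1 again among them, the genotypes did not differ alike in females and in males. With 1 male per genotype, the difference was not tested. The female minus male difference in log2 fold change was 2.2 for Il1a, where both LC3b-/- females exceeded all WT females and the LC3b-/- male was below the WT male. It was 0.8 for Il17rc. For Il11ra1 it was -0.33, with LC3b-/- females lower and both males at 105 CPM.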

How the results depend on the processing

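The excess of interleukin genes above 0 held under every alternative run. It was 37 of 51 with the replicate block, 40 of 52 in females alone, 30 of 38 with 10 counts required in every library, 62 of 81 with no filter and 61 of 81 in DESeq2. The number called did not hold. DESeq2 called 16 members, and 1831 of all genes. Limma voom, no filter on low counts, sex as a covariate and females alone called 1 member each (Il1r2 in voom, Il36g in the others). In that order, they called 124, 78, 197 and 96 of all genes. Leaving out 1 library gave 0 to 2 calls among members and 11 to 485 among all genes. At an unadjusted p under 0.05 there were 12 to 30 members, and 2461 to 4789 of all genes. Between 40 and 43 members were above 0, with medians of 0.53 (without WT F3) to 1.07 (without WT F1). With the mouse name as a replicate block, 12 members and 2889 of all genes were at an unadjusted p under 0.05. No member and no other gene was called. Only 2 names (F1 and F3) occur in both genotypes, their deviations correlated at 0.15 and 0.24, and nothing says that they pair mice. Il10 reversed in DESeq2 (-0.01) and ranged from -0.17 to 0.28 with a library left out. Il11ra3 ranged from -1.25 to 0.11, and Il1rapl1 from -0.66 to 0.04, with 0.06 in females alone. Il25 reversed in voom (1.26) and under the block (0.79). The cause of these changes was not tested. Counts near 0 kept 33 members out of the edgeR test, of which DESeq2 called 1, Il23a.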
